A study of Mus musculus with 16 samples.

Results

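Oxidative phosphorylation genes of the nuclear genome were examined in cultured organs of Corti exposed to the histone deacetylase inhibitor FK228 in mice with and without a Rest mutation. The genes were taken by name from the authors' normalized table: symbols starting with Ndufa, Ndufb, Ndufc, Ndufs or Ndufv and a number, with Uqcr or with Atp5, the 4 Sdh genes, and Cox4 to Cox8 genes with the letter a, b or c. This gave 84 of the 21220 genes in the table, and 80 of these passed the filter on low counts that left 17125 genes. By complex, 35 belonged to complex I, 4 to complex II, 8 to complex III, 14 to complex IV and 15 to complex V. A further 4 genes carry such a name without encoding a subunit (Ndufa4l2, Cox7a2l, Atp5s and Atp5sl), and 4 were pseudogenes. The 4 genes that failed the filter were Cox8b of complex IV and the pseudogenes Uqcrh-ps1, Atp5k-ps2 and Atp5l-ps2.

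The organ of Corti is the sensory epithelium of the cochlea, and it was dissected from C57BL/6 mice on postnatal day 0 and cultured for 3.5 days. The 4 groups held 4 libraries each. They were Rest(+/deltaExon4) cultures with 2 nM FK228 (libraries 2, 3, 4 and 5), Rest(+/deltaExon4) cultures with the 0.1% DMSO solvent (1, 2, 4 and 5), wild-type cultures with 2 nM FK228 (1, 2, 4 and 7) and wild-type cultures with solvent (1, 2, 3 and 4). Rest(+/deltaExon4) mice, called heterozygous below, carry a single Rest allele without exon 4; REST silences neuronal genes and brings histone deacetylases to them. FK228, or romidepsin, inhibits class I histone deacetylases. Cultures were exposed between culture days 1 and 1.5 and again between days 3 and 3.5, and RNA was taken at the end of the second exposure. Each library pooled 6 to 8 organ cultures. No label tells if these pools stem from different litters or animals, and p-values here set group differences against the spread between pools only.

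Oxidative phosphorylation passes electrons from NADH (complex I, NADH dehydrogenase) and succinate (complex II, succinate dehydrogenase) through ubiquinone to complex III and, by cytochrome c, to complex IV, which reduces oxygen. Complexes I, III and IV pump protons across the inner mitochondrial membrane, and complex V, the ATP synthase, uses the gradient to make ATP. Most subunits are encoded in the nucleus and a small number in the mitochondrial DNA, and some complex IV subunits have isoforms restricted to muscle or testis. Hair cells of the cochlea and the neurons that serve them are known for a high demand for mitochondrial ATP.

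Libraries held 12361027 to 23611571 gene counts. Values below are CPM (counts scaled to the library size, with TMM factors). An error after a mean is the SD of 4 libraries, an error after a log2 fold change is the SE of the edgeR fit, and a call needs an adjusted p under 0.05 over all 17125 genes. Rest had 75.7 to 87.2 CPM in heterozygous FK228, 77.998 to 94.7 in heterozygous solvent, 69.8 to 79.8 in wild-type FK228 and 75.1 to 86.3 in wild-type solvent cultures, and counts per gene cannot show the lost exon. All 10 hair cell markers and all 10 supporting cell markers looked up passed the filter. FK228 cultures also differed in cell markers. All 8 macrophage markers fell in both genotypes, with sums of 22.95 to 35.5 CPM in heterozygous FK228 and 237 to 373 in heterozygous solvent, and of 37.2 to 53.4 in wild-type FK228 and 363 to 446 in wild-type solvent libraries. Of 6 mesenchyme markers 4 fell and 1 rose in heterozygous, and 5 fell and 1 rose in wild-type cultures. Supporting cell markers fell for 8 of 10 in heterozygous and 6 of 10 in wild-type cultures, and 0 rose. Of 8 spiral ganglion neuron markers 4 rose and 1 fell in heterozygous, and 2 rose and 2 fell in wild-type cultures. Hair cell markers also went both ways, with 1 of 10 higher and 2 lower in heterozygous, and 1 higher and 4 lower in wild-type cultures. Of 5 Schwann cell markers tested 4 fell in heterozygous and 3 in wild-type cultures, with sums of 135 to 180.3 CPM in heterozygous FK228 and 277 to 332 in heterozygous solvent, and of 137 to 169.9 in wild-type FK228 and 278 to 356 in wild-type solvent libraries. The part of these cells in the results below was not tested, and in bulk RNA fewer cells of a type and less RNA per cell cannot be told apart.

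ERCC spike-in RNA took 0.312% to 0.393% of counts in heterozygous FK228 libraries and 0.156% to 0.237% in all others. Scaled to the spike-in RNA, the median of all genes moved by -0.72 (log2) for FK228 in heterozygous and -0.16 in wild-type cultures. It moved by -0.18 for heterozygous over wild type in solvent and by -0.74 under FK228. Every direction below is therefore relative to the average gene of a library. On the spike-in scale 0 members were called higher and 69 lower with FK228 in heterozygous cultures, and 7 higher and 15 lower in wild type. On that scale 4.71% of all genes were higher and 62.6% lower in heterozygous, and 11.7% higher and 26.4% lower in wild-type cultures. Library 4 of the heterozygous solvent group and library 1 of the wild-type solvent group stood apart, with 11.2% and 11.7% of reads in no gene against a median of 18.4%. Heterozygous solvent library 4 was the highest of its group for 57 members, and wild-type solvent library 1 for 47. Such a skew was not limited to them. Wild-type FK228 library 1 was the highest of its group for 56 members and heterozygous FK228 library 2 for 46. Heterozygous solvent library 2 was the lowest of its group for 46 members and heterozygous FK228 library 4 for 45. Totals of members called for FK228 and for genotype in solvent are given with and without the 2 libraries lowest in reads in no gene. Counts by complex or part of a complex, overlaps between genotypes, signs, ranges, sums and medians are given with them only.

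FK228 changed these genes in both directions, and by smaller steps than genes at large. In heterozygous cultures 18 of 80 members (22.5%) rose and 23 (28.75%) fell, against 23.8% of all genes tested that rose and 24.7% that fell. In wild-type cultures 26 (32.5%) rose and 17 (21.25%) fell, against 23.7% and 25.3% of all genes. Without the 2 libraries that stood apart, 20 members rose and 19 fell in heterozygous cultures, against 23.4% and 23.9% of all genes. In wild type the same fit had 30 of 80 that rose and 16 that fell, against 23.8% and 24% of all genes. The median log2 fold change of the 80 members was -0.05 in heterozygous and 0.05 in wild-type cultures, where that of all genes was 0.00082 and -0.0058. The median size of the log2 fold change, without its sign, was 0.24 in heterozygous and 0.22 in wild-type cultures for members, and 0.42 in both for all genes. Among the calls, 2 of 41 in heterozygous and 3 of 43 in wild-type cultures exceeded 2-fold, against 33.3% and 32.2% of the calls over all genes. These were Cox6a2 and Cox6b2 in both genotypes and Ndufa4l2 in wild type. Members and all genes were not matched for expression level in these comparisons of size.

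**Figure D1:**
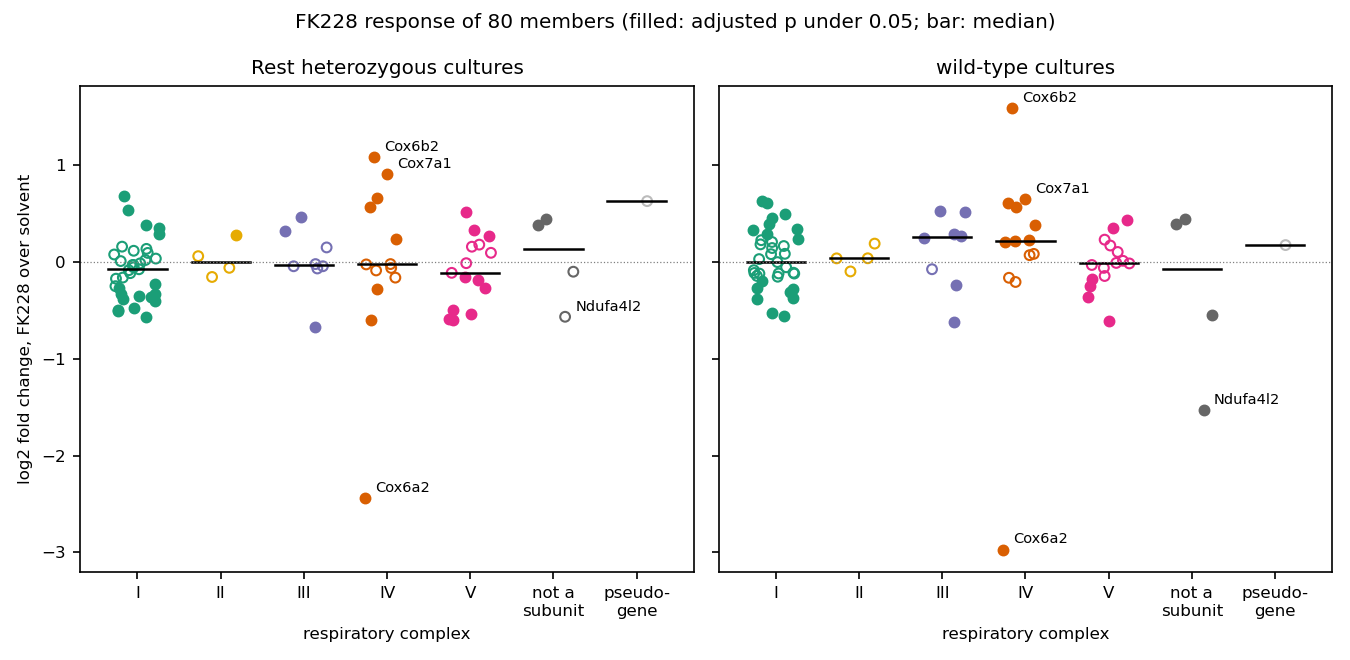
Log2 fold change of FK228 over solvent, relative to the average gene, for the 80 members tested, by respiratory complex, in heterozygous (left) and wild-type cultures (right). Each point is a gene, filled at an adjusted p under 0.05, and the bar is the median of a complex; nearly all points lie within 1 log2 unit of 0, and the muscle isoform Cox6a2 lies at -2.44 in heterozygous and -2.97 in wild-type cultures.

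By complex, the counts in heterozygous cultures were 5 higher and 12 lower of 35 in complex I, 1 and 0 of 4 in complex II, 2 and 1 of 8 in complex III, 5 and 3 of 13 in complex IV, and 3 and 7 of 15 in complex V. In wild-type cultures they were 9 higher and 8 lower in complex I, 0 and 0 in complex II, 5 and 2 in complex III, 8 and 1 in complex IV, and 2 and 4 in complex V. Median log2 fold changes were -0.08, -0.0022, -0.03, -0.03 and -0.11 for complexes I to V in heterozygous cultures. In wild type the same medians were -0.0033, 0.04, 0.26, 0.22 and -0.02. Subunits of the same complex changed in opposite directions in complexes I, III, IV and V of both genotypes. Genes at large were also called both ways. Of all genes tested 23.8% rose and 24.7% fell in heterozygous cultures, and 23.7% rose and 25.3% fell in wild type. The same shares stand beside the counts for parts of a complex below.

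Promoters were read for 65 of the 84 genes from RefSeq (GRCm38.p6), as the 250 bases before each start, because groups of members moved together in both genotypes. They were searched on both strands for the cores of 3 factors known to act on respiratory genes: TGCGCA for NRF1, CGGAAG for ETS factors such as GABPA, and ATGGCG for YY1, each also as its reverse complement. The cores do not overlap each other in the stretches shown. Shown are Cox5a, which rose in both genotypes and holds an ETS and a YY1 core, Cox7a1, a muscle isoform that rose and holds none of the cores, and the complex I genes Ndufa9 and Ndufs8, which fell in both. Capitals mark the cores. Positions are chr9:57520982-57521231, plus strand for Cox5a, chr7:30183921-30184170, plus strand for Cox7a1, chr6:126849145-126849394, minus strand for Ndufa9 and chr19:3912775-3913024, minus strand for Ndufs8, each printed 5′ to 3′ on the strand of its gene.
Cox5a: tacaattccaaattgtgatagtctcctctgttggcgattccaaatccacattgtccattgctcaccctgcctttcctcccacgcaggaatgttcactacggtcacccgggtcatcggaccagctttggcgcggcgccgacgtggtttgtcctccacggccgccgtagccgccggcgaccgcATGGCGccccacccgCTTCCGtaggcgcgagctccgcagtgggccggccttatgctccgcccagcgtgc
Cox7a1: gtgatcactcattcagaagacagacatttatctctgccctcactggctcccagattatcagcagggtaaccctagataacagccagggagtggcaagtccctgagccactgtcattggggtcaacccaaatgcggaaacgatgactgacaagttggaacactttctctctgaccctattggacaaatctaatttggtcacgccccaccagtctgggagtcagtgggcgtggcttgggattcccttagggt
Ndufa9: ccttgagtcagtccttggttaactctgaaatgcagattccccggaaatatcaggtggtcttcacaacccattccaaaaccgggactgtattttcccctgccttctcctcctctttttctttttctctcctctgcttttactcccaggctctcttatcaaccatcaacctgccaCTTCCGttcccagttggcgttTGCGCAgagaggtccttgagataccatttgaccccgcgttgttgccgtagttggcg
Ndufs8: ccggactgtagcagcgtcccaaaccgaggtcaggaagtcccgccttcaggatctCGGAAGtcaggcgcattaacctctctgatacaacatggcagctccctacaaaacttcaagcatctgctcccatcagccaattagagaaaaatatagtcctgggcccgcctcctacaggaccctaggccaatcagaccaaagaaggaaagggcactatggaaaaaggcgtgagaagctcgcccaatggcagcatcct
In Cox5a the ETS core starts 54 and the YY1 core 69 bases before the start, in Ndufa9 the NRF1 core 56 and the ETS core 77 bases before it, and in Ndufs8 the ETS core 196 bases before it. Of 70 promoters of 65 members, 14 (20%) held the NRF1 core, 21 (30%) the ETS core and 10 (14.3%) the YY1 core. Of all 32817 promoters in the table, 6.42%, 13.6% and 5.73% held them. At least 1 core stood in 33 of the 70 (47.1%), against 22.1% of all promoters. Among members it stood in 6 of the 15 promoters of those that rose in both genotypes (40%), in 8 of the 10 of those that fell in both (80%), and in 9 of the 23 of those called in neither (39.1%). An ETS core stood in 6 of those 15 promoters, in 7 of those 10 and in 5 of those 23. These sets are small and the shares were not tested. A match describes letters in this window, not a bound site.

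Complex I takes electrons from NADH, and its core is the part conserved from bacteria. Among its nuclear core subunits, 1 rose and 4 fell in each genotype, and these were the same genes: Ndufv1, which binds NADH and the flavin, rose, and Ndufs1, Ndufs3, Ndufs7 and Ndufs8 fell. Ndufv1 averaged 158 ± 7.26 CPM in heterozygous FK228 and 124 ± 3.44 in heterozygous solvent cultures, and its log2 fold changes were 0.35 ± 0.07 in heterozygous (adjusted p = 0.0007) and 0.34 ± 0.07 in wild-type cultures (adjusted p = 0.00096). Ndufs7, which carries the iron-sulfur cluster next to ubiquinone, had log2 fold changes of -0.27 ± 0.08 in heterozygous (adjusted p = 0.0093) and -0.27 ± 0.08 in wild-type cultures (adjusted p = 0.0086). Ndufv2, a partner of Ndufv1, did not pass, with log2 fold changes of -0.08 in heterozygous and -0.0033 ± 0.07 in wild-type cultures.

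Ndufs8 (ENSMUSG00000059734, chr19:3908863-3912774, minus strand, GRCm38), an iron-sulfur subunit near the ubiquinone site whose promoter is printed above, had 89.05, 92.95, 97.5 and 96.3 CPM in heterozygous FK228 cultures, against 139, 133, 126 and 126 CPM in heterozygous solvent cultures. Wild-type Ndufs8 levels were 84.999, 78.1, 76.5 and 80.3 CPM with FK228, against 129, 118, 109 and 106 CPM in solvent. The FK228 libraries lay below the solvent libraries in both genotypes, with log2 fold changes of -0.48 ± 0.07 in heterozygous (adjusted p = 2.3e-05) and -0.53 ± 0.07 in wild-type cultures (adjusted p = 7.5e-06). Ndufs3, a core subunit of the same ubiquinone-reducing part, had 63.97, 62.2, 64.99 and 70.6 CPM in heterozygous FK228 cultures, against 88.3, 91.6, 100.3 and 92.5 CPM in heterozygous solvent cultures. Wild-type Ndufs3 levels were 78.8, 73.1, 78.8 and 67.2 CPM with FK228, against 97.2, 97.2, 104 and 90.7 CPM in solvent. Again no library of one treatment overlapped the other, and the log2 fold changes were -0.51 ± 0.07 in heterozygous (adjusted p = 1.5e-05) and -0.39 ± 0.07 in wild-type cultures (adjusted p = 0.00023). Ndufs1, the large iron-sulfur subunit of the NADH-oxidising arm, had 98.7, 109, 107 and 98.3 CPM in heterozygous FK228 cultures, against 149.8, 149, 118 and 131 CPM in heterozygous solvent cultures. Wild-type Ndufs1 levels were 112, 113, 105 and 107 CPM with FK228, against 134, 152, 136 and 143 CPM in solvent. The groups were apart in both genotypes (-0.41 ± 0.08, adjusted p = 0.00027, in heterozygous and -0.37 ± 0.08, adjusted p = 0.00061, in wild-type cultures). Ndufs1 shares exons with Ino80dos and Eef1b2 on the opposite strand, and Ino80dos had log2 fold changes of -1.35 ± 0.11 in heterozygous and -1.20 ± 0.11 in wild-type cultures, so that reads of the 2 strands cannot be told apart.

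Accessory subunits surround the core of complex I, and 4 of the 28 rose in heterozygous and 8 in wild-type cultures, while 8 and 4 fell. Ndufb10 (ENSMUSG00000040048, chr17:24722060-24724478, minus strand), an accessory subunit of the membrane arm, had 217, 194, 184 and 196 CPM in heterozygous FK228 cultures, against 128, 118, 129.7 and 118 CPM in heterozygous solvent cultures. Wild-type Ndufb10 levels were 209, 168, 178 and 189 CPM with FK228, against 141, 116, 110.1 and 115 CPM in solvent. Each FK228 library lay above each solvent library of its genotype, at log2 fold changes of 0.68 ± 0.09 in heterozygous (adjusted p = 3.9e-06) and 0.62 ± 0.09 in wild-type cultures (adjusted p = 1.1e-05). Ndufa12, which takes the place of the assembly factor Ndufaf2 late in assembly, had 104, 95.2, 86.3 and 96.99 CPM in heterozygous FK228 cultures, against 64.3, 65.3, 73.7 and 60.8 CPM in heterozygous solvent cultures. Wild-type Ndufa12 levels were 105, 89.04, 94.9 and 95.1 CPM with FK228, against 69.4, 67.2, 59.3 and 56.5 CPM in solvent. Ndufa12 rose in both genotypes, by 0.53 ± 0.09 in heterozygous (adjusted p = 5.1e-05) and 0.60 ± 0.09 in wild-type cultures (adjusted p = 1.4e-05) on the log2 scale. In the opposite direction, Ndufa9 (ENSMUSG00000000399, chr6:126821721-126849136, minus strand), an accessory subunit at the joint of the 2 arms, had 55.9, 47.2, 50.01 and 53.5 CPM in heterozygous FK228 cultures, against 73.5, 76.8, 82.3 and 73.7 CPM in heterozygous solvent cultures. Wild-type Ndufa9 levels were 55.7, 49.2, 46.6 and 54.7 CPM with FK228, against 81.3, 81.5, 74.5 and 65.8 CPM in solvent. Its FK228 libraries lay below all solvent libraries, at log2 fold changes of -0.57 ± 0.09 in heterozygous (adjusted p = 2.7e-05) and -0.56 ± 0.09 in wild-type cultures (adjusted p = 3.2e-05).

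Also higher in both genotypes were Ndufb9, of the membrane arm (0.29 in heterozygous and 0.23 in wild type, log2 fold change), and Ndufv3, of the NADH-oxidising arm (0.38 and 0.49). Lower in both were Ndufb7 (-0.38 in heterozygous and -0.20 in wild type), Ndufb8 (-0.36 and -0.31) and Ndufb11 (-0.33 and -0.28), all of the membrane arm. Ndufb8 and Ndufb9 share exons with another annotated gene on the same strand, so their counts are uncertain. Ndufb11 shares exons with Rbm10 on the opposite strand, and reads of the 2 strands cannot be told apart. Rbm10 also fell, at log2 fold changes of -0.76 ± 0.09 in heterozygous and -0.73 ± 0.09 in wild-type cultures. Called in wild type but not in heterozygous cultures were Ndufa1, Ndufa5, Ndufa11 and Ndufc1, all higher, and called in heterozygous cultures alone were Ndufa2, Ndufa7, Ndufa13 and Ndufs6, all lower. Ndufa2, for example, had log2 fold changes of -0.50 ± 0.09 in heterozygous (adjusted p = 0.00011) and -0.15 ± 0.09 in wild-type cultures (adjusted p = 0.17). The difference between genotypes passed the test for none of these 8 genes, with adjusted p for the interaction of 0.52 or more.

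Ndufa5, an accessory subunit of the matrix arm, had 177, 168, 115 and 143 CPM in heterozygous FK228 cultures, against 159.97, 156, 177 and 161 CPM in heterozygous solvent cultures. Wild-type Ndufa5 levels were 168, 146, 148 and 175 CPM with FK228, against 123, 125, 117 and 119.8 CPM in solvent. The wild-type solvent libraries and heterozygous FK228 library 4 were the lowest: the wild-type groups were apart and the heterozygous groups overlapped, at log2 fold changes of -0.12 ± 0.10 in heterozygous (adjusted p = 0.37) and 0.39 ± 0.10 in wild-type cultures (adjusted p = 0.0043).

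Complex II oxidises succinate and is also an enzyme of the citric acid cycle; all of its subunits are nuclear. Sdha, the flavoprotein, had 303, 313, 317 and 318 CPM in heterozygous FK228 cultures, against 336, 330.3, 389 and 339 CPM in heterozygous solvent cultures. Wild-type Sdha levels were 327, 312, 297 and 326 CPM with FK228, against 379, 328, 317 and 328 CPM in solvent. Sdha did not pass the test, with log2 fold changes of -0.16 ± 0.07 in heterozygous (adjusted p = 0.07) and -0.10 ± 0.07 in wild-type cultures (adjusted p = 0.25). Sdhb, the iron-sulfur subunit, had 341, 319.97, 326 and 348 CPM in heterozygous FK228 cultures, against 343, 349, 369 and 334 CPM in heterozygous solvent cultures. Wild-type Sdhb levels were 374, 349, 339.6 and 346 CPM with FK228, against 380.4, 358, 330.3 and 306 CPM in solvent, and the groups overlapped in both genotypes. Sdhc and Sdhd anchor the enzyme in the membrane. Sdhc had 68.6, 65.7, 73.4 and 78.8 CPM in heterozygous FK228 cultures, against 61.7, 56.2, 66.5 and 52.3 CPM in heterozygous solvent cultures. Wild-type Sdhc levels were 64.9, 61.3, 56.03 and 67.2 CPM with FK228, against 64.9, 49.9, 53.6 and 50.5 CPM in solvent. Its groups overlapped in both genotypes, and the log2 fold changes were 0.28 ± 0.10 in heterozygous (adjusted p = 0.027) and 0.19 ± 0.10 in wild-type cultures (adjusted p = 0.12). The call in heterozygous cultures was lost without heterozygous FK228 library 4 or 5 or heterozygous solvent 2 or 5, each left out alone (adjusted p up to 0.088). Sdhd had 161, 169.6, 167 and 171 CPM in heterozygous FK228 cultures, against 169, 149.7, 172 and 152 CPM in heterozygous solvent cultures. Wild-type Sdhd levels were 183, 165, 155 and 172 CPM with FK228, against 176, 166, 159 and 157 CPM in solvent. Sdhd differed by less than the spread between libraries, at log2 fold changes of 0.06 ± 0.07 in heterozygous (adjusted p = 0.51) and 0.04 ± 0.07 in wild-type cultures (adjusted p = 0.70).

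Complex III passes electrons from ubiquinol to cytochrome c. Uqcrfs1, the Rieske iron-sulfur protein, rose in both genotypes, at log2 fold changes of 0.32 ± 0.07 in heterozygous (adjusted p = 0.00058) and 0.25 ± 0.07 in wild-type cultures (adjusted p = 0.0041). Of its core proteins, Uqcrc1 passed in neither genotype and Uqcrc2 fell in wild type, at log2 fold changes of -0.07 ± 0.06 in heterozygous (adjusted p = 0.38) and -0.24 ± 0.06 in wild-type cultures (adjusted p = 0.0036). The small subunits moved in both directions. Uqcrb (ENSMUSG00000021520, chr13:66900617-66905378, minus strand), a ubiquinone-binding subunit, had 40.2, 46.5, 42.3 and 45.1 CPM in heterozygous FK228 cultures, against 70.7, 69.5, 72.6 and 64.8 CPM in heterozygous solvent cultures. Wild-type Uqcrb levels were 41.2, 39.9, 37.5 and 40.9 CPM with FK228, against 61.3, 66.9, 57.3 and 59.005 CPM in solvent. FK228 libraries lay below solvent libraries in both genotypes, at log2 fold changes of -0.67 ± 0.07 in heterozygous (adjusted p = 6.3e-07) and -0.62 ± 0.07 in wild-type cultures (adjusted p = 1.8e-06), and Uqcrb shares exons with Gm10767 on the opposite strand. Uqcrh (ENSMUSG00000063882, chr4:116066965-116075071, minus strand), the hinge protein that contacts cytochrome c1, had 106, 95.3, 83.01 and 99.9 CPM in heterozygous FK228 cultures, against 70.8, 65.8, 75.6 and 66.1 CPM in heterozygous solvent cultures. Wild-type Uqcrh levels were 97.5, 87.2, 90.5 and 92.3 CPM with FK228, against 67.8, 65.5, 56.4 and 65.7 CPM in solvent. Here the FK228 libraries lay above the solvent libraries, at log2 fold changes of 0.47 ± 0.08 in heterozygous (adjusted p = 0.00015) and 0.53 ± 0.08 in wild-type cultures (adjusted p = 4.2e-05). Uqcrh has near copies among pseudogenes, of which Uqcrh-ps2 was tested. Uqcrh-ps2 averaged 0.712 ± 0.122 CPM in heterozygous FK228 and 0.456 ± 0.292 in heterozygous solvent cultures. Reads that match more than 1 of these copies may be lost or misplaced in the counts, which was not tested. The small subunits Uqcr10, Uqcr11 and Uqcrq rose in wild type (0.28, 0.52 and 0.27) and did not pass in heterozygous cultures (-0.02, 0.15 and -0.05).

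The largest changes among the subunits were in complex IV, in genes of tissue isoforms. Cox6a2 (ENSMUSG00000030785, chr7:128205435-128206387, minus strand), the heart and skeletal muscle isoform of subunit 6a, had raw counts of 2, 3, 6 and 3 reads in heterozygous FK228 libraries, against 19, 25, 27 and 12 in heterozygous solvent libraries. In wild-type libraries there were 3, 6, 3 and 3 reads with FK228, against 44, 30, 38 and 23 in solvent. In CPM, Cox6a2 had 0.151, 0.207, 0.405 and 0.236 CPM in heterozygous FK228 cultures, against 1.33, 1.63, 1.82 and 0.821 CPM in heterozygous solvent cultures. Wild-type Cox6a2 levels were 0.1701, 0.362, 0.181 and 0.1696 CPM with FK228, against 1.99, 1.65, 2.13 and 1.32 CPM in solvent. The groups were apart, and the log2 fold changes were -2.44 ± 0.41 in heterozygous (adjusted p = 7.5e-05) and -2.97 ± 0.39 in wild-type cultures (adjusted p = 6.3e-06), which is 5.42-fold lower with FK228 in heterozygous and 7.84-fold lower in wild-type cultures. Cox6a2 shares exons with Itgad, an integrin gene of leukocytes, on the opposite strand, and the macrophage markers fell in the same libraries; their part in the Cox6a2 reads was not tested. Skeletal muscle markers, of which 6 of 9 were in the table and 3 were tested, summed to 10.5 to 16.8 CPM in heterozygous FK228 and 5.38 to 11.8 in heterozygous solvent libraries, and to 13.9 to 19.7 in wild-type FK228 and 7.404 to 12.3 in wild-type solvent libraries. Heart muscle markers, of which 3 of 5 were found, summed to 15.3 to 26.4 CPM in heterozygous FK228 and 13.5 to 18.6 in heterozygous solvent libraries. In wild type their sums were 10.7 to 20.2 CPM with FK228 and 14.1 to 18.9 in solvent. The part of muscle cells in the Cox6a2 level was not tested.

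Its common paralog went the other way. Cox6a1 (ENSMUSG00000041697, chr5:115345642-115348981, minus strand), the isoform of most tissues, had 123, 114, 89.7 and 91.96 CPM in heterozygous FK228 cultures, against 63.5, 66.97, 78.5 and 74.4 CPM in heterozygous solvent cultures. Wild-type Cox6a1 levels were 113, 90.2, 99.9 and 102 CPM with FK228, against 65.2, 69.03, 71.4 and 59.5 CPM in solvent. Each FK228 library lay above the solvent libraries of its genotype, at log2 fold changes of 0.56 ± 0.11 in heterozygous (adjusted p = 0.00024) and 0.61 ± 0.10 in wild-type cultures (adjusted p = 0.00011). Per kilobase of merged exons, Cox6a2 reached 9.07 ± 1.79 TPM (length-scaled counts, SD, n = 4) in its highest group, wild-type solvent, where Cox6a1 had 329 ± 28.9.

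Cox6b2 (ENSMUSG00000051811, chr7:4751792-4753094, minus strand), the testis isoform of subunit 6b, had 12.9, 10.5, 11.1 and 9.904 CPM in heterozygous FK228 cultures, against 4.75, 5.49, 4.71 and 6.09 CPM in heterozygous solvent cultures. Wild-type Cox6b2 levels were 14.5, 12.2, 12.4 and 14.98 CPM with FK228, against 4.11, 4.89, 5.94 and 3.04 CPM in solvent. The groups were apart, at log2 fold changes of 1.08 ± 0.18 in heterozygous (adjusted p = 6.3e-05) and 1.59 ± 0.17 in wild-type cultures (adjusted p = 7.9e-07), or 2.11-fold and 3.002-fold higher with FK228. The common Cox6b1, which faces the intermembrane space, had 225, 211, 165 and 198 CPM in heterozygous FK228 cultures, against 226, 212, 239 and 217 CPM in heterozygous solvent cultures. Wild-type Cox6b1 levels were 213, 201, 196 and 202 CPM with FK228, against 205, 200.2, 177 and 184 CPM in solvent, and the groups overlapped in both genotypes (-0.16 ± 0.08, adjusted p = 0.11, in heterozygous and 0.08 ± 0.08, adjusted p = 0.43, in wild-type cultures). In wild-type FK228 cultures, where Cox6b2 was highest, it had 43.5 ± 4.397 TPM and Cox6b1 1023 ± 27.1.

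Cox7a1 (ENSMUSG00000074218, chr7:30184144-30186078, plus strand), the muscle isoform of subunit 7a whose promoter is printed above, had 20.2, 17.1, 15.6 and 17.9996 CPM in heterozygous FK228 cultures, against 8.73, 6.801, 10.4 and 11.8 CPM in heterozygous solvent cultures. Wild-type Cox7a1 levels were 11.6, 14.5, 15.1 and 14.6 CPM with FK228, against 8.31, 8.79, 4.71 and 13.9 CPM in solvent. The heterozygous groups were apart and the wild-type groups overlapped, at log2 fold changes of 0.91 ± 0.23 in heterozygous (adjusted p = 0.0033) and 0.65 ± 0.23 in wild-type cultures (adjusted p = 0.026). The wild-type call was lost without wild-type FK228 library 4 or wild-type solvent 1, 2 or 3, each left out alone (adjusted p up to 0.078), and without the 2 libraries that stood apart (0.056). The common Cox7a2 had 217, 201, 167 and 191 CPM in heterozygous FK228 cultures, against 202, 187, 205 and 197 CPM in heterozygous solvent cultures. Wild-type Cox7a2 levels were 205, 191, 192 and 204 CPM with FK228, against 169, 179, 169 and 173 CPM in solvent. Cox7a2 passed in wild type alone, at log2 fold changes of -0.03 ± 0.07 in heterozygous (adjusted p = 0.78) and 0.20 ± 0.07 in wild-type cultures (adjusted p = 0.025), and lost that call without wild-type FK228 library 1 or wild-type solvent 3, each left out alone (adjusted p up to 0.064). Cox8b, the muscle isoform of subunit 8, was too low to test, with 2, 2, 1 and 2 reads in heterozygous FK228, 7, 6, 10 and 9 in heterozygous solvent, 0, 0, 1 and 0 in wild-type FK228 and 12, 4, 3 and 4 in wild-type solvent libraries. In CPM, Cox8b had 0.151, 0.138, 0.0675 and 0.157 CPM in heterozygous FK228 cultures, against 0.489, 0.392, 0.673 and 0.616 CPM in heterozygous solvent cultures. Wild-type Cox8b levels were 0, 0, 0.0603 and 0 CPM with FK228, against 0.542, 0.2198, 0.168 and 0.2296 CPM in solvent. Each solvent library held more Cox8b reads than any FK228 library of its genotype. Its common paralog Cox8a had 291, 262, 213 and 269.8 CPM in heterozygous FK228 cultures, against 249, 254, 302 and 278 CPM in heterozygous solvent cultures. Wild-type Cox8a levels were 277, 266, 261 and 246 CPM with FK228, against 265, 237, 248 and 251 CPM in solvent, and it passed in neither genotype (-0.06 ± 0.09, adjusted p = 0.57, in heterozygous and 0.07 ± 0.09, adjusted p = 0.53, in wild-type cultures).

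**Figure D2:**
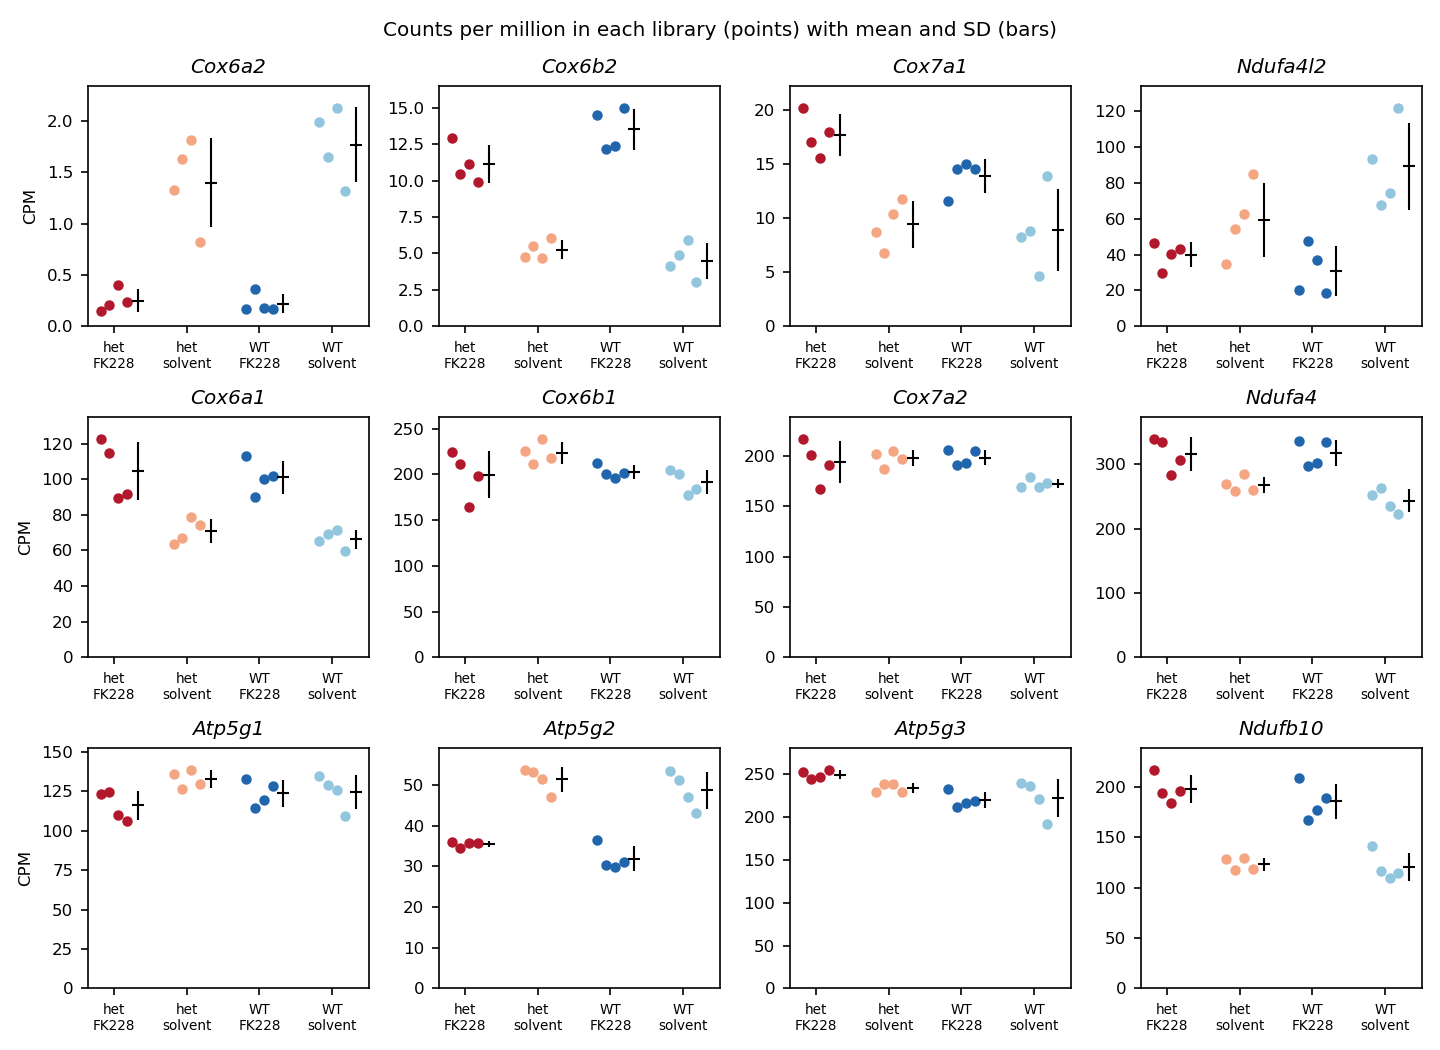
CPM of isoforms and paralogs in each library (points) with the mean and SD of 4 libraries (bars), by group: heterozygous and wild-type cultures, each with FK228 left of solvent. Top row Cox6a2, Cox6b2, Cox7a1 and Ndufa4l2, middle row their common paralogs, bottom row the c subunit genes and Ndufb10; Cox6a2 has 0.151 to 0.405 CPM in heterozygous FK228 and 0.1696 to 0.362 in wild-type FK228 libraries, below every solvent library.

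Among the other complex IV subunits, Cox5a (ENSMUSG00000000088, chr9:57521274-57532426, plus strand), which binds on the matrix side and whose promoter is printed above, had 97.5, 83.04, 78.5 and 87.5 CPM in heterozygous FK228 cultures, against 55.02, 55.1, 57.8 and 51.9 CPM in heterozygous solvent cultures. Wild-type Cox5a levels were 85.3, 71.8, 80.04 and 78.8 CPM with FK228, against 54.99, 54.6, 57.9 and 45.98 CPM in solvent. FK228 libraries lay above all solvent libraries, at log2 fold changes of 0.66 ± 0.09 in heterozygous (adjusted p = 5e-06) and 0.57 ± 0.08 in wild-type cultures (adjusted p = 2.5e-05). Ndufa4, named for complex I but a subunit of complex IV, had 339, 334, 282 and 306 CPM in heterozygous FK228 cultures, against 269.7, 258, 285 and 259.7 CPM in heterozygous solvent cultures. Wild-type Ndufa4 levels were 336, 297, 302 and 335 CPM with FK228, against 252, 262, 235 and 223 CPM in solvent. Ndufa4 rose in both genotypes (0.23 ± 0.07, adjusted p = 0.014, in heterozygous and 0.38 ± 0.07, adjusted p = 0.00032, in wild-type cultures); the heterozygous groups overlapped, and that call was lost without heterozygous FK228 library 2 (adjusted p 0.051).

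Cox7c, a small subunit at the membrane, had 107, 105, 84.2 and 85.8 CPM in heterozygous FK228 cultures, against 147, 125, 149 and 159 CPM in heterozygous solvent cultures. Wild-type Cox7c levels were 106, 103, 101 and 104 CPM with FK228, against 115, 119, 111 and 120.2 CPM in solvent. Both genotypes' groups were apart, and Cox7c passed in heterozygous cultures alone, at log2 fold changes of -0.60 ± 0.09 in heterozygous (adjusted p = 1.4e-05) and -0.17 ± 0.09 in wild-type cultures (adjusted p = 0.12). Cox6c, another small subunit, had 224, 212, 163 and 195 CPM in heterozygous FK228 cultures, against 224, 198, 219 and 204 CPM in heterozygous solvent cultures. Wild-type Cox6c levels were 206, 190.3, 189 and 188 CPM with FK228, against 173, 165, 163 and 165 CPM in solvent. The log2 fold changes were -0.09 ± 0.08 in heterozygous (adjusted p = 0.38) and 0.22 ± 0.08 in wild-type cultures (adjusted p = 0.033), and the wild-type call was lost without wild-type FK228 library 1 or wild-type solvent 2, 3 or 4, each left out alone (adjusted p up to 0.095). Cox7b, a small subunit needed for assembly, had 129, 131, 103 and 119 CPM in heterozygous FK228 cultures, against 128, 119.6, 127 and 115 CPM in heterozygous solvent cultures. Wild-type Cox7b levels were 129, 121, 117 and 129 CPM with FK228, against 109, 110.2, 96.03 and 109.6 CPM in solvent. It too passed in wild type alone, at -0.02 ± 0.08 in heterozygous (adjusted p = 0.82) and 0.22 ± 0.08 in wild-type cultures (adjusted p = 0.025), and lost the call without wild-type FK228 library 1 or wild-type solvent 3, each left out alone (adjusted p up to 0.087). Cox5b, which binds zinc, fell in heterozygous cultures, at log2 fold changes of -0.29 ± 0.10 in heterozygous (adjusted p = 0.024) and -0.21 ± 0.10 in wild-type cultures (adjusted p = 0.09).

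Complex V has a catalytic head, a rotating stalk and c ring, and a peripheral stalk that holds the head still. Of the 4 peripheral stalk genes (Atp5f1, Atp5h, Atp5j and Atp5o), 2 rose in each genotype; Atp5o fell in heterozygous cultures, at -0.16. Of the 3 membrane genes Atp5j2, Atp5k and Atp5l, 3 fell in heterozygous cultures and 1, Atp5j2, in wild type. The catalytic Atp5b passed in neither genotype (-0.01 ± 0.09, adjusted p = 0.91, in heterozygous and -0.15 ± 0.09, adjusted p = 0.19, in wild-type cultures), while its partner Atp5a1 fell in wild type (-0.11 ± 0.06, adjusted p = 0.12, in heterozygous and -0.25 ± 0.06, adjusted p = 0.0018, in wild-type cultures).

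Atp5j, coupling factor 6 of the peripheral stalk, had 281, 266, 228 and 257 CPM in heterozygous FK228 cultures, against 214, 206, 228 and 211 CPM in heterozygous solvent cultures. Wild-type Atp5j levels were 273, 246, 245 and 272 CPM with FK228, against 207, 191, 179 and 189.5 CPM in solvent. FK228 libraries lay above the solvent libraries in both genotypes, at log2 fold changes of 0.27 ± 0.07 in heterozygous (adjusted p = 0.0049) and 0.43 ± 0.07 in wild-type cultures (adjusted p = 7.3e-05). Atp5j shares exons with Gabpa on the opposite strand, which moved the other way, at -0.86 ± 0.13 in heterozygous and -0.82 ± 0.13 in wild-type cultures. Atp5h, subunit d of the same stalk, rose at log2 fold changes of 0.33 ± 0.08 in heterozygous (adjusted p = 0.0029) and 0.35 ± 0.08 in wild-type cultures (adjusted p = 0.0017).

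The small stalk subunits of the rotor differed. Atp5d, the delta subunit, had 250.3, 215, 218 and 237 CPM in heterozygous FK228 cultures, against 138, 170.4, 175 and 162 CPM in heterozygous solvent cultures. Wild-type Atp5d levels were 220.01, 177, 206 and 173 CPM with FK228, against 185, 167, 163 and 147 CPM in solvent. The heterozygous groups were apart and the wild-type groups overlapped, at log2 fold changes of 0.51 ± 0.09 in heterozygous (adjusted p = 0.00021) and 0.23 ± 0.09 in wild-type cultures (adjusted p = 0.053). Atp5d shares exons with Cbarp on the opposite strand, which rose by more (1.41 ± 0.23 in heterozygous and 0.94 ± 0.22 in wild-type cultures), so the strands cannot be told apart. Atp5e (ENSMUSG00000016252, chr2:174461072-174464105, minus strand), the epsilon subunit, had 117, 106, 83.8 and 89.1 CPM in heterozygous FK228 cultures, against 149, 142, 157 and 148 CPM in heterozygous solvent cultures. Wild-type Atp5e levels were 97.8, 87.2, 89.3 and 86.9 CPM with FK228, against 120.3, 119.8, 109.7 and 114 CPM in solvent. Atp5e fell in both genotypes with no overlap, at log2 fold changes of -0.59 ± 0.09 in heterozygous (adjusted p = 2.6e-05) and -0.36 ± 0.09 in wild-type cultures (adjusted p = 0.0023). Atp5j2, subunit f of the membrane part, had 90.3, 90.2, 76.7 and 87.1 CPM in heterozygous FK228 cultures, against 125, 117, 124 and 119 CPM in heterozygous solvent cultures. Wild-type Atp5j2 levels were 87.9, 85.2, 87.6 and 85.3 CPM with FK228, against 93.99, 104, 92.3 and 101 CPM in solvent. Atp5j2 fell in both genotypes, at -0.49 ± 0.07 in heterozygous (adjusted p = 7.2e-06) and -0.18 ± 0.07 in wild-type cultures (adjusted p = 0.033), and the wild-type call was lost without heterozygous solvent library 1, 4 or 5, wild-type FK228 library 2, 4 or 7 or wild-type solvent 2 or 4, each left out alone (adjusted p up to 0.10).

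Atp5g1, Atp5g2 and Atp5g3 encode the same mature c subunit behind different import sequences. Atp5g2 (ENSMUSG00000062683, chr15:102662864-102672352, minus strand) had 35.95, 34.4, 35.7 and 35.8 CPM in heterozygous FK228 cultures, against 53.8, 53.2, 51.5 and 47.1 CPM in heterozygous solvent cultures. Wild-type Atp5g2 levels were 36.5, 30.2, 29.8 and 31.2 CPM with FK228, against 53.5, 51.2, 47.2 and 43.2 CPM in solvent. Atp5g2 fell in both genotypes without overlap, at log2 fold changes of -0.53 ± 0.09 in heterozygous (adjusted p = 4.8e-05) and -0.61 ± 0.08 in wild-type cultures (adjusted p = 1.1e-05). Atp5g1 had 124, 125, 110.1 and 106 CPM in heterozygous FK228 cultures, against 136, 127, 139 and 129.6 CPM in heterozygous solvent cultures. Wild-type Atp5g1 levels were 133, 114, 119 and 129 CPM with FK228, against 135, 129, 126 and 109.5 CPM in solvent. Its log2 fold changes were -0.19 ± 0.08 in heterozygous (adjusted p = 0.049) and -0.01 ± 0.08 in wild-type cultures (adjusted p = 0.91), and the heterozygous call was lost without heterozygous FK228 library 4 or 5, heterozygous solvent library 1, 4 or 5, wild-type FK228 library 4 or 7 or wild-type solvent 2 or 3, each left out alone (adjusted p up to 0.15). Atp5g3 had 252, 244, 247 and 255 CPM in heterozygous FK228 cultures, against 229.7, 239, 238 and 229 CPM in heterozygous solvent cultures. Wild-type Atp5g3 levels were 233, 212, 216 and 218 CPM with FK228, against 239.7, 237, 222 and 192 CPM in solvent, and it did not pass in either genotype (0.09 ± 0.07, adjusted p = 0.27, in heterozygous and -0.02 ± 0.07, adjusted p = 0.86, in wild-type cultures). Per kilobase of merged exons Atp5g3 was the highest of them, with 410.1 ± 7.49, 364 ± 10.5, 360.04 ± 13.1 and 355 ± 27.9 TPM in heterozygous FK228, heterozygous solvent, wild-type FK228 and wild-type solvent cultures. Atp5g2 had 75.9 ± 1.56, 104 ± 7.38, 68.1 ± 6.05 and 101 ± 6.46 TPM in the same groups. The summed CPM of the 3 genes was 401 ± 8.403 in heterozygous FK228 and 418 ± 9.401 in heterozygous solvent cultures, a difference of -4.08%, and it differed by -5.16% in wild type. Summed per kilobase of merged exons, the differences were 1.95% in heterozygous and -4.91% in wild-type cultures. By principal transcript length they were 4.74% and -4.01%, so the sign in heterozygous cultures depends on the unit.

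The 4 genes that share the names but are not subunits each passed in at least 1 genotype. Ndufa4l2 (ENSMUSG00000040280, chr10:127514967-127517154, plus strand), a hypoxia-inducible paralog of Ndufa4, had 46.6, 29.95, 40.6 and 43.2 CPM in heterozygous FK228 cultures, against 34.8, 54.6, 62.8 and 85.3 CPM in heterozygous solvent cultures. Wild-type Ndufa4l2 levels were 20.4, 47.9, 36.9 and 18.4 CPM with FK228, against 93.2, 67.6, 74.3 and 122 CPM in solvent. The wild-type groups were apart and the heterozygous groups overlapped, at log2 fold changes of -0.57 ± 0.28 in heterozygous (adjusted p = 0.11) and -1.53 ± 0.29 in wild-type cultures (adjusted p = 0.00023); the interaction had an adjusted p of 0.81. Ndufa4l2 shares exons with Shmt2 on the opposite strand, which had -0.14 ± 0.11 in heterozygous and -0.52 ± 0.11 in wild-type cultures. Markers of smooth muscle and pericytes summed to 165 to 386 CPM in heterozygous FK228, 261 to 683 in heterozygous solvent, 173 to 195 in wild-type FK228 and 255 to 313 in wild-type solvent libraries, and their part in the Ndufa4l2 level was not tested.

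Cox7a2l, a protein linked to supercomplexes of complexes III and IV, had 157, 166, 154 and 178 CPM in heterozygous FK228 cultures. Heterozygous solvent cultures had 124, 111, 126 and 122 CPM. Wild-type Cox7a2l levels were 182, 162, 162 and 166 CPM with FK228, against 142, 117, 117 and 118 CPM in solvent. FK228 libraries lay above solvent libraries in both genotypes, at log2 fold changes of 0.44 ± 0.08 in heterozygous (adjusted p = 0.00013) and 0.44 ± 0.08 in wild-type cultures (adjusted p = 0.00011). Atp5s, also called coupling factor B, had 31.9, 32.7, 33.6 and 29.7 CPM in heterozygous FK228 cultures, against 24.7, 25.4, 25.5 and 22.9 CPM in heterozygous solvent cultures. Wild-type Atp5s levels were 33.5, 36.3, 33.1 and 37.9 CPM with FK228, against 27.4, 31.8, 23.9 and 24.05 CPM in solvent, and it rose in both genotypes without overlap (0.38 ± 0.10, adjusted p = 0.0035, in heterozygous and 0.39 ± 0.10, adjusted p = 0.0022, in wild-type cultures). Atp5sl, an assembly factor of the complex I membrane arm, had 16.9, 18.6, 17.95 and 20.1 CPM in heterozygous FK228 cultures, against 22.2, 17.003, 20.9 and 18.9 CPM in heterozygous solvent cultures. Wild-type Atp5sl levels were 15.4, 14.2, 15.6 and 16.2 CPM with FK228, against 26.7, 23.6, 21.2 and 18.1 CPM in solvent. It fell in wild type and overlapped in heterozygous cultures, at -0.10 ± 0.12 in heterozygous (adjusted p = 0.51) and -0.55 ± 0.12 in wild-type cultures (adjusted p = 0.00096).

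Set side by side, the 2 genotypes share no library in the FK228 comparisons. Of 43 members called in wild type and 41 in heterozygous cultures, 29 were called in both, 16 higher and 13 lower, and 0 in opposite directions. These 29 were 70.7% of the heterozygous and 67.4% of the wild-type calls, where the shares over all genes were 81.4% and 80.4%. A further 12 members were called in heterozygous cultures alone, 14 in wild type alone and 25 in neither. The log2 fold changes had the same sign in 62 of 80 members. The test of the difference itself, the interaction of genotype and FK228, called 0 members higher and 0 lower, where 0.0175% of all genes were called higher and 0.00584% lower. At an unadjusted p under 0.05 edgeR had 3 of 80 members higher and 16 lower, against 995 of all 17125 genes in either direction. DESeq2 and limma voom called 0 members after adjustment. A call in a single genotype is therefore not shown to differ from the other genotype.

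**Figure D3:**
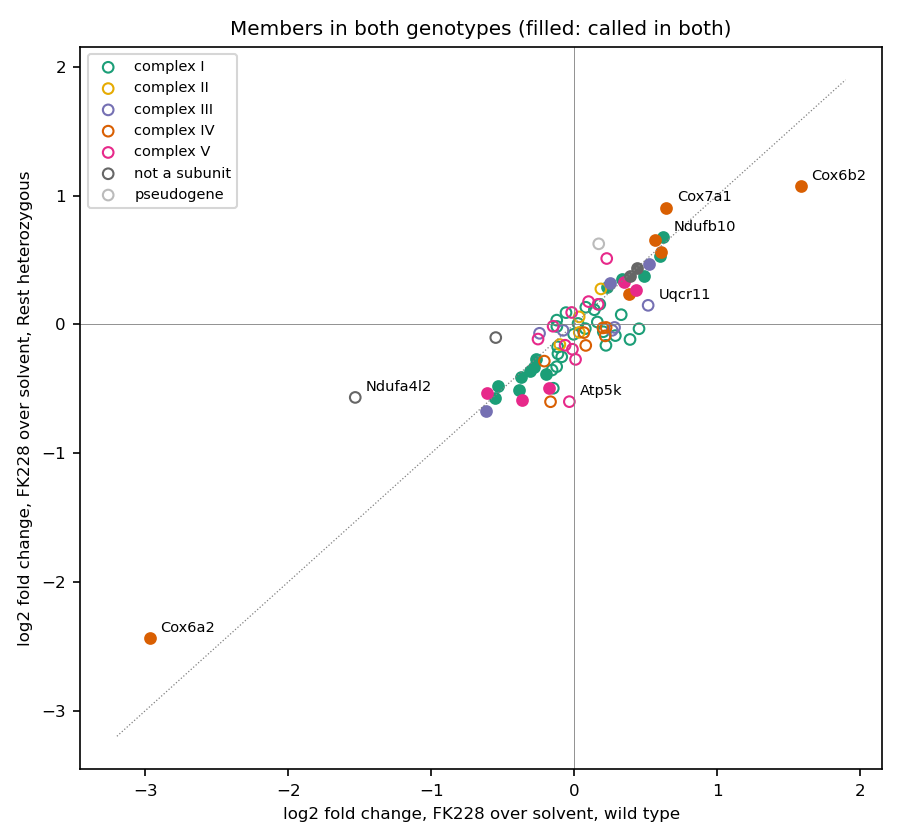
Log2 fold change of FK228 over solvent, relative to the average gene, in wild-type (horizontal) and heterozygous cultures (vertical), for the 80 members tested; filled points passed in both genotypes and the dotted line marks equal change. The 29 members called in both lie at the lower left (13) and the upper right (16), and none passed in opposite directions.

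Summed over its subunits in CPM, the level of each complex differed between FK228 and solvent by 15.1% at most. Complex I summed to 4183 ± 281 CPM in heterozygous FK228 and 4322 ± 223 in heterozygous solvent cultures, a difference of -3.22%, and to 4175 ± 196 in wild-type FK228 and 3985 ± 241 in wild-type solvent cultures (4.75%). The differences for complexes II, III, IV and V were -3.45%, 2.64%, 0.586% and 1.37% in heterozygous and -0.2304%, 8.699%, 15.1% and 0.3801% in wild-type cultures. Of these CPM sums the one that differed most was complex IV in wild type, with 1614 to 1758 CPM with FK228, against 1407 to 1488 in solvent, ranges that do not overlap. Complex III sums in CPM were also apart in wild type, at 942 to 1037 CPM with FK228, against 859 to 936 in solvent. Heterozygous sums overlapped in every complex, and complex IV had 1423 to 1851 CPM with FK228 and 1549.8 to 1759 in solvent. Summed per kilobase of merged exons, the differences for complexes I to V in wild type were 10.2%, 3.68%, 17.5%, 16.5% and 4.09%, so complex III came before complex IV. On that scale complex I was apart in wild type as well, with 11036.8 to 12036.1 TPM with FK228, against 10097.6 to 10727.5 in solvent. By principal transcript length complex IV (18.4%) came before complex III (17.4%). In heterozygous cultures the differences per kilobase of merged exons were 2.08%, 4.08%, 8.48%, 5.89% and 6.34%, and the groups overlapped in every complex. The 7 mitochondrially encoded subunit genes in the table summed to 1893 ± 103 CPM in heterozygous FK228 and 1858 ± 177 in heterozygous solvent cultures, and to 1893 ± 139 and 1851 ± 196 in wild-type FK228 and solvent cultures (libraries were primed with oligo dT).

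**Figure D4:**
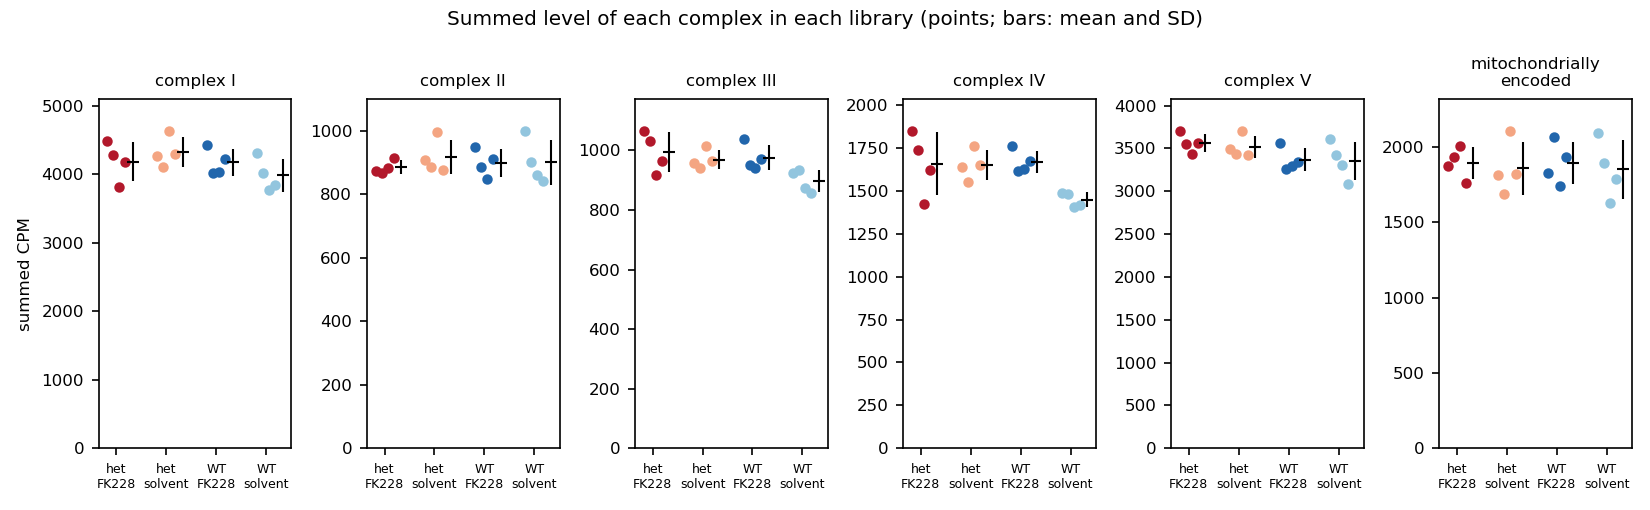
Summed CPM of each complex and of the mitochondrially encoded subunit genes in each library (points; bars, mean and SD of 4 libraries), by group, each genotype with FK228 left of solvent. FK228 and solvent sums overlap in every panel in heterozygous cultures, and in wild type they are apart in complex III and in complex IV, where FK228 libraries (1614 to 1758 CPM) lie above solvent libraries (1407 to 1488 CPM).

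Few of these genes differed between heterozygous and wild-type cultures. In solvent 4 members were higher in heterozygous cultures and 0 lower, where 1.2% of all genes were higher and 0.823% lower. The 4 were Ndufa5 of complex I (0.43 ± 0.10, adjusted p = 0.035), Cox6c of complex IV (0.34 ± 0.08, adjusted p = 0.03), and Atp5e (0.36 ± 0.09, adjusted p = 0.038) and Atp5j2 of complex V (0.31 ± 0.07, adjusted p = 0.015), as log2 fold changes. Their heterozygous solvent libraries all lay above the wild-type solvent libraries. Ndufa5, for example, averaged 164 ± 9.45 CPM in heterozygous and 121 ± 3.62 in wild-type solvent cultures. Before adjustment, edgeR had 23 members higher and 3 lower at p under 0.05, against 1936 of all 17125 genes in either direction. DESeq2 and limma voom called 0 members lower after adjustment. Of the 80 members, 62 had a log2 fold change above 0, against 47.6% of all genes, and the median was 0.08 where that of all genes was -0.010. In 20 members the heterozygous libraries all lay above the wild-type ones and in 0 all below, against 3.1% and 3.13% of all genes. The summed level of heterozygous solvent cultures differed from that of wild-type solvent cultures by 8.46% in complex I, 1.78% in complex II, 7.97% in complex III, 13.9% in complex IV and 4.84% in complex V, and in CPM the groups of sums were apart in complexes III and IV. Per kilobase of merged exons they were apart in complexes I, III and IV, with differences of 8.36%, 9.87% and 9.47%, and by principal transcript length in complex V too (6.42%).

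The 4 calls rest on few libraries. Without the 2 libraries that stood apart 0 were left, against 0.853% of all genes called higher, and the adjusted p were 0.15 for Ndufa5, 0.094 for Cox6c, 0.12 for Atp5e and 0.08 for Atp5j2. Without wild-type solvent library 3 there were 0, and without heterozygous solvent library 5 there were 2. Without wild-type solvent library 2 or 4, or heterozygous solvent library 1 or 4, there was 1. Leaving out heterozygous FK228 library 2 or 4, which enter only the shared spread, gave 8 or 11. The calls over all genes moved as well. The main fit had 206 genes higher. Without wild-type solvent library 2, 3 or 4 there were 149, 131 or 136. Without heterozygous solvent library 1, 4 or 5 there were 175, 182 or 209. Without heterozygous FK228 library 2 or 4 there were 225 or 236. Scaled to the spike-in RNA 0 were called, against 0.607% of all genes. DESeq2 called 9 and limma voom 2, with 319 and 143 of all 17125 genes higher. Spiral ganglion neuron markers differed between the same libraries, with 6 of 8 lower in heterozygous solvent cultures and sums of 125 to 218 CPM in heterozygous and 275 to 495 in wild-type solvent libraries; their part in these results was not tested.

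Transcript length moved with the genotype difference in solvent. Members whose principal transcript is under 800 bases had a median log2 fold change of 0.15 (36 genes), those of 800 to 1500 bases 0.065 (24 genes) and those of 1500 to 3000 bases 0.00099 (16 genes). The 3 members of 3000 bases and over had a median of 0.11. Other genes of the same lengths had medians of 0.058 (379 genes), -0.0075 (1682 genes), -0.018 (4977 genes) and -0.015 (7365 genes). Under FK228 the medians of members in these bins were 0.036, -0.0099, -0.0063 and 0.0080, and those of other genes 0.038, 0.015, -0.0013 and -0.023. In the fit with a length offset, 3 of the members called higher in heterozygous solvent cultures kept their call and 1 lost it. The part of length in the genotype difference was not tested beyond this fit and these medians.

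**Figure D5:**
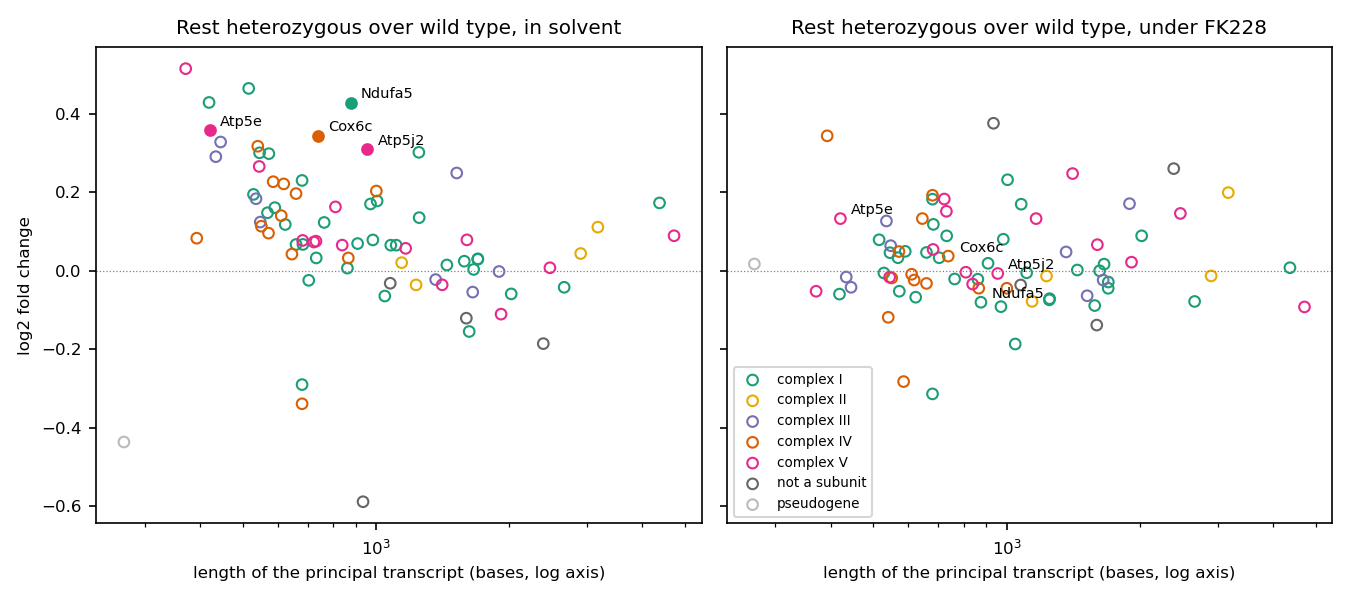
Log2 fold change of heterozygous over wild-type cultures, relative to the average gene, against the length of the principal transcript (bases, log axis) for the members tested, in solvent (left) and under FK228 (right); filled points passed the test. In solvent the shortest members tend to lie above 0 and Ndufa5, Cox6c, Atp5e and Atp5j2 passed; under FK228 the same 4 lie between -0.08 and 0.13 and no member passed.

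With FK228 in both genotypes, 0 members were higher and 0 lower in heterozygous cultures, where 1.21% of all genes were higher and 0.928% lower. At an unadjusted p under 0.05 edgeR had 6 higher and 2 lower, against 2210 of all 17125 genes in either direction. DESeq2 and limma voom called 0 members after adjustment. Ndufa5, Cox6c, Atp5e and Atp5j2, higher in heterozygous solvent cultures, had log2 fold changes of -0.08 ± 0.10, 0.04 ± 0.08, 0.13 ± 0.09 and -0.0067 ± 0.07 under FK228. The genotype comparison in solvent and the FK228 comparison in heterozygous cultures share the heterozygous solvent libraries. For Atp5j2 the first gave 0.31 and the second -0.49, and for Cox7c they were 0.32 and -0.60. The smallest interaction p among the members was that of Ndufa5, Cox7c and Atp5j2, all at an adjusted p of 0.52.

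Other genes of the pathway were looked up in 6 lists. Of the mitochondrially encoded subunits, 7 of 13 were tested and 0 passed in any comparison; mt-Nd1, the most changed, had log2 fold changes of 0.09 ± 0.09 in heterozygous (adjusted p = 0.40) and 0.19 ± 0.09 in wild-type cultures (adjusted p = 0.076). Among 8 nuclear subunits and carriers whose names lie outside the rule, 2 rose and 1 fell in heterozygous cultures and 1 rose and 1 fell in wild type. Atpif1, the inhibitor of ATP hydrolysis by complex V, fell at -0.57 ± 0.07 in heterozygous (adjusted p = 3.3e-06) and -0.37 ± 0.07 in wild-type cultures (adjusted p = 0.0003). Cox4i1, the common isoform of complex IV subunit 4, had 0.30 ± 0.08 in heterozygous (adjusted p = 0.0029) and 0.12 ± 0.07 in wild-type cultures (adjusted p = 0.19), and its hypoxia-linked isoform Cox4i2 had 0.59 ± 0.21 in heterozygous (adjusted p = 0.026) and -0.03 ± 0.21 in wild-type cultures (adjusted p = 0.93). Ndufab1, the acyl carrier protein of complex I, had 0.07 ± 0.09 in heterozygous (adjusted p = 0.56) and 0.24 ± 0.09 in wild-type cultures (adjusted p = 0.025).

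Of 44 assembly factors tested, 11 rose and 10 fell in heterozygous cultures and 10 rose and 11 fell in wild type, near the shares over all genes. Ndufaf2, the assembly factor replaced by Ndufa12, averaged 33.3 ± 3.57 CPM in heterozygous FK228 and 15.3 ± 0.406 in heterozygous solvent cultures. Its wild-type means were 32.4 ± 4.74 with FK228 and 14.05 ± 1.48 in solvent, and the log2 fold changes were 1.12 ± 0.12 in heterozygous (adjusted p = 3.7e-07) and 1.21 ± 0.12 in wild-type cultures (adjusted p = 1.5e-07), larger than those of Ndufa12 given above. Timmdc1, an assembly factor of the complex I membrane arm, rose (0.38 ± 0.07, adjusted p = 0.00033, in heterozygous and 0.69 ± 0.07, adjusted p = 5.3e-07, in wild-type cultures). Ndufaf8, which acts on Ndufaf5 in complex I assembly, fell (-0.96 ± 0.12, adjusted p = 3.4e-06, in heterozygous and -0.69 ± 0.12, adjusted p = 0.00012, in wild-type cultures). Cox10, which makes heme for complex IV, fell as well (-0.82 ± 0.14, adjusted p = 7e-05, in heterozygous and -0.85 ± 0.13, adjusted p = 4.3e-05, in wild-type cultures). Between genotypes 1 assembly factor passed, Cox15, which acts after Cox10 in heme synthesis and was lower in heterozygous solvent cultures (-0.56 ± 0.13, adjusted p = 0.035).

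Of 12 regulators of mitochondrial biogenesis, 4 rose and 4 fell in heterozygous cultures, where 23.8% of all genes rose and 24.7% fell, and 3 rose and 4 fell in wild type, where 23.7% of all genes rose and 25.3% fell. The 4 with the smallest p all fell. Pprc1, a coactivator of the PGC-1 family, fell (-1.05 ± 0.15, adjusted p = 1.8e-05, in heterozygous and -1.07 ± 0.15, adjusted p = 1.3e-05, in wild-type cultures), as did Yy1 (-0.45 ± 0.07, adjusted p = 5.9e-05, in heterozygous and -0.48 ± 0.07, adjusted p = 2.9e-05, in wild-type cultures). Gabpa and Gabpb1, which together form the GABP activator of respiratory genes, also fell. Gabpb1 had -0.60 ± 0.11 in heterozygous (adjusted p = 0.00028) and -0.52 ± 0.11 in wild-type cultures (adjusted p = 0.00097), and Gabpa was given above with Atp5j, whose exons it shares. Those that rose were Esrra, Polrmt and Tfam in both genotypes and Ppargc1b in heterozygous cultures; they stand outside the rule for named genes and were added after their values were seen. Among 13 citric acid cycle enzymes 5 rose and 3 fell in each genotype, against the same shares of all genes. Idh3a and Idh3g are subunits of the same isocitrate dehydrogenase, and Idh3a rose (0.78 ± 0.06, adjusted p = 1.1e-08, in heterozygous and 0.89 ± 0.06, adjusted p = 3.7e-09, in wild-type cultures) while Idh3g fell (-0.53 ± 0.08, adjusted p = 1.6e-05, in heterozygous and -0.45 ± 0.08, adjusted p = 8.7e-05, in wild-type cultures). The malate dehydrogenase Mdh2 rose (0.59 ± 0.07, adjusted p = 1.7e-06, in heterozygous and 0.62 ± 0.07, adjusted p = 1.1e-06, in wild-type cultures), and so did the citrate synthase Cs (0.52 ± 0.06, adjusted p = 2e-06, in heterozygous and 0.52 ± 0.06, adjusted p = 2.5e-06, in wild-type cultures).

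Of 21 other mitochondrial proteins, 7 rose and 4 fell in heterozygous cultures and 6 rose and 4 fell in wild type, against 23.8% and 24.7% of all genes in heterozygous and 23.7% and 25.3% in wild-type cultures. The 4 with the smallest p all rose. Phb, a scaffold protein of the inner membrane, rose (0.59 ± 0.07, adjusted p = 1e-06, in heterozygous and 0.69 ± 0.07, adjusted p = 1.8e-07, in wild-type cultures). The outer membrane channel Vdac1 rose (0.53 ± 0.06, adjusted p = 1.5e-06, in heterozygous and 0.31 ± 0.06, adjusted p = 0.00037, in wild-type cultures). Slc25a4, which exchanges ADP and ATP across the inner membrane, rose (0.44 ± 0.06, adjusted p = 9.5e-06, in heterozygous and 0.49 ± 0.06, adjusted p = 2.7e-06, in wild-type cultures), and so did Slc25a3, the phosphate carrier (0.37 ± 0.06, adjusted p = 0.00012, in heterozygous and 0.20 ± 0.06, adjusted p = 0.017, in wild-type cultures). The 4 that fell, in both genotypes, were Hspa9, Opa1, Slc25a5 and Clpp, which were likewise added after their values were seen. In the genotype comparisons and the interaction none of the 6 lists had a member that passed, apart from Cox15.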

How the data were processed

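Polyadenylated RNA was reverse transcribed with oligo dT and template switching, amplified, tagmented and sequenced in pairs, per the labels' protocols. For each library the authors deposited gene-level read counts; STAR 2.5.2a and the GRCm38.p4 build are named in the submitters' processing notes. The authors also deposited normalized signal for 21220 genes, for which those notes name DESeq2. The annotation behind the counts is not given in the sources used here. The normalized table supplied gene names only; each deposited signal value times a factor per library gave the deposited count. Unstranded counts were used, so overlapping genes on opposite strands are not told apart, and 28 of the 80 members tested share exons with another gene (4 of them on the same strand). Reads in no gene (11.2% to 22.2%, as a share of these, ambiguous reads and gene counts), other summary rows and ERCC rows were kept out of library sizes.

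The filter was filterByExpr with a minimum count of 10 and a minimum total of 15. Genes were tested with edgeR 4.0.16 in R 4.3.3 by a quasi-likelihood model with a mean per group over all 16 libraries, TMM factors and Benjamini-Hochberg adjustment. On simulated counts of 17125 genes for FK228 in wild type, 61% of 1.5-fold and 96% of 2-fold changes were recovered with 11 false calls, so small changes can be missed. Libraries of a group differed by more than sampling noise. TPM used merged exon lengths of GENCODE M21. Alternatives were DESeq2 1.42.0, limma 3.58.1 (voom with quality weights), RLE factors, spike-in scaling, no filter, a stricter filter (50 counts in 4 libraries), a length offset, the share of reads in no gene as covariate, the replicate number as a block, only the groups compared, no mitochondrially encoded genes, and fits that each left out 1 library. Leaving out the 2 libraries lowest in reads in no gene was chosen after seeing the data.

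The members, lists and tests were chosen with earlier results of these data known. Values in every library are given for up to 8 members that rose and 8 that fell with the smallest adjusted p in each comparison, tissue isoforms and non-subunits with their common paralogs, the c subunit genes and the Sdh genes, and up to 4 genes of each other list are named; the rest are given by count, range or log2 fold change. The values of 1 member are not reported here.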

Additional observations from a re-analysis of the deposited data

Results flagged for a closer look

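In 9 of 148 groups (37 genes in 4 groups of 4 libraries) a single library lay far from the other three by Dixon's criterion, and chance flags about 1 group in 20. Wild-type FK228 library 1 was lowest for Cox7a1, at 11.6 CPM, and highest for Cox6c, at 205.8 CPM. Wild-type FK228 library 2 was highest for Cox6a2, at 0.362 CPM, which is 6 reads. Wild-type FK228 library 4 was the only one of its group with a Cox8b read, at 0.0603 CPM, and wild-type solvent library 1 was highest for Cox8b, at 0.542 CPM. Heterozygous solvent library 4 was highest for Sdha, at 388.8 CPM, and wild-type solvent library 1 for Cox7a2l, at 142.0 CPM; these are the 2 libraries with the fewest reads in no gene. Heterozygous FK228 library 3 was lowest for Atp5g2, at 34.4 CPM, and wild-type solvent library 3 was lowest for Cox7b, at 96.0 CPM.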

How the results depend on the processing

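Of the counts and summed levels, 270 of 298 recomputed values stayed within the limits of the main value (counts within 1.5 times, sums within 1 SD), and of the values of single members 104 lost their call and 11 changed sign. Spike-in scaling moved the most: members called with FK228 in heterozygous cultures were 0 higher and 69 lower (all genes, 4.71% and 62.6%), those with FK228 in wild type 7 higher (11.7%), those for genotype in solvent 0 higher (0.607%), those for genotype under FK228 76 lower (74.5%), and those for the interaction 58 lower (23.7%). All 11 changes of sign were members called higher with FK228 in heterozygous cultures, which on the spike-in scale had log2 fold changes of -0.45 (Sdhc), -0.24 (Uqcrh), -0.13 (Cox6a1), -0.47 (Ndufa4), -0.052 (Cox5a), -0.19 (Atp5d), -0.17 (Ndufa12), -0.34 (Atp5s), -0.44 (Atp5j), -0.034 (Ndufb10) and -0.28 (Cox7a2l); the scaling lowers the median gene of that comparison by 0.72.

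The 4 members higher in heterozygous solvent cultures became 9 with DESeq2 and 2 with limma voom. They became 8 with the share of reads in no gene as covariate and 0 without the 2 libraries lowest in that share. Of all 17125 genes, 319, 143, 277 and 146 were higher in these 4 fits, against 206 in the main fit. The cause was not tested. Leaving out 1 library at a time gave 0 to 11 there, 0 to 1 lower for genotype under FK228 (1 without heterozygous FK228 library 3), 19 to 30 higher and 15 to 18 lower for FK228 in wild type, and 17 to 20 higher and 18 to 24 lower for FK228 in heterozygous cultures. Of the named calls 3 of 24 for FK228 in heterozygous, 5 of 26 for FK228 in wild type and 4 of 4 for genotype in solvent were lost at least once.

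No label states that replicate numbers pair the samples, and 2 or 3 pairs per comparison are too few to settle it. Deviations of same-numbered libraries correlated at -0.10 to 0.02 for FK228 in heterozygous and -0.10 to 0.15 for FK228 in wild type (3 pairs each). For genotype they correlated at -0.23 to 0.17 in solvent (3 pairs) and 0.01 to 0.03 under FK228 (2 pairs). With the replicate number as a block, 17 members were higher for FK228 in wild type (26 in the main fit) and 0 for genotype in solvent (4 in the main fit). Of all 17125 genes, 3241 and 115 were then called higher. Summed per kilobase, FK228 over solvent in heterozygous cultures differed by 2.08% in complex I, 4.08% in complex II, 8.48% in complex III, 5.89% in complex IV and 6.34% in complex V, FK228 in wild type by 10.2% in complex I, 3.68% in complex II, 17.5% in complex III, 16.5% in complex IV and 4.09% in complex V, and heterozygous over wild type in solvent by 9.47% in complex IV. Depth limits Cox6a2, Cox8b and the pseudogenes, which had few reads.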
